A study of Mus musculus with 16 samples.

Results

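Fasted mutant liver was compared with fasted heterozygous liver in mice that model methylmalonic acidemia. The comparison rests on 8 of the 16 liver arrays of the series, the 4 labelled MutFasted and the 4 labelled HetFasted, and was described across the 19938 genes that had a single annotated symbol. The mutants were Mut -/- and the controls Mut +/- at the gene of methylmalonyl-CoA mutase (Mut, now named Mmut), so the controls were heterozygous and not wild type. Both genotypes carried the transgene TgINS-MCK-Mut, in which MCK is the usual abbreviation of muscle creatine kinase, whose promoter drives expression in muscle. All mice were males of 4 months, with a separate mouse behind each array. Food had been withheld for 12 hours from heterozygotes but for 8 to 12 hours from mutants, and the labels give no hours for single mutants, so genotype and length of the fast cannot be told apart in any value below. The unfasted mutant and unfasted heterozygous groups, 4 arrays each of the same genotypes on a normal diet, entered the fit and are quoted beside the fasted values.

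Methylmalonyl-CoA mutase is the mitochondrial enzyme that turns methylmalonyl-CoA into succinyl-CoA, the last step in the breakdown of propionate from branched-chain amino acids, odd-chain fatty acids and cholesterol side chains. A fasted liver oxidises fatty acids, makes ketone bodies and glucose, and lowers the synthesis of fat and sterols, with the nuclear receptor PPAR-alpha as a main regulator. The liver also secretes most plasma proteins and keeps a sex-biased gene programme that is set by the pattern of growth hormone release.

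Levels are log2 values as the authors deposited them, so a difference of 1 is a 2-fold change, and they compare a gene between arrays, not 1 gene with another. Where 4 values are listed they stand for replicates 1 to 4 of a group, and mutant 1 or heterozygote 1 below means that fasted replicate. Differences are mutant minus heterozygous ± standard error from a limma fit, and a gene is called, or said to rise or fall in mutants, at an adjusted p under 0.05. Mmut itself read 7.85, 8.03, 8.13 and 8.33 in fasted mutants against 9.77, 9.78, 10.10 and 9.90 in fasted heterozygotes. The groups did not overlap, and the difference was -1.80 ± 0.11 (3.48-fold lower, adjusted p = 3.6e-07). Of the hepatocyte markers, albumin (Alb) read between 13.49 and 13.59 in mutants and between 13.61 and 13.66 in heterozygotes. The highest value on any array was 14.33, which is only a rough guide to the tissue, since levels do not compare genes. Of 9 hepatocyte markers 1 was called, Serpina1c, an alpha-1-antitrypsin gene, at -0.38 ± 0.09 (adjusted p = 0.014). That is 11.1% of the list called lower, against 5.01% of all genes. All 9 differences were below 0, with a median of -0.1. The groups did not overlap in 5 of the 9, against 23.7% of all genes without overlap. The mean level of the list was lower on every mutant array than on any heterozygous one.

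The fasted arrays had medians of 7.34 to 7.39, and arrays of a group correlated at 0.991 to 0.996. The first principal component of the 8 arrays carried 59.7% of the variance and set the genotypes apart, with heterozygotes between -20.8 and -17.5 and mutants at 29.7, 23.0, 8.9 and 12.7. Mutants 1 and 2 thus lay farther from the heterozygotes than mutants 3 and 4, and mutant 1 stood apart from the other mutants on the second component (12.9% of the variance, -19.4 against 7.6 to 10.3). Mutant 3 was the mutant array closest to the heterozygotes in 40.6% of the called genes and mutant 4 in 32.4%, against 15.9% for mutant 1 and 11% for mutant 2. Unfasted mutant array 1 held pancreatic acinar transcripts (Cpa1 12.29 there, 6.84 to 7.22 on the fasted arrays). In the fit it bears on the fasted comparison through the shared estimate of spread. It also shared the normalization of the deposited values and the choice of each gene's brightest probe set.

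Of the 19938 genes, 2716 were called (13.6%), 1718 higher in mutants (8.62%) and 998 lower (5.01%), so 63.3% of the calls were higher. The shares of 8.62% and 5.01% are the background for every list count below. That split depends on the scaling of the arrays: it was 43.4% higher of 3483 calls after centring each array on its median and 52.8% higher of 2712 calls after a second quantile normalization, whereas the median difference of all genes lay at -0.02 as deposited. At an unadjusted p under 0.05 there were 5987 genes. The called differences were mostly small, with a median of 0.41 among genes called higher and -0.29 among genes called lower. At least 2-fold differences were found in 97 genes called higher and 87 called lower, and at least 4-fold ones in 14 and 16. The fasted groups did not overlap in 4730 genes (23.7%), 2449 of them called. The count of calls was 1575 without mutant 2, 1713 without heterozygote 4 and 3180 without the unfasted mutant array with acinar transcripts.

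The largest rises were in cytochromes P450 of the Cyp2 family, the leptin receptor, amino acid genes and a glycerol channel. Cyp2b13, a cytochrome P450 with a known female bias in mouse liver, read 10.70, 11.22, 10.29 and 9.53 in mutants and 7.78, 6.15, 5.52 and 5.65 in heterozygotes. All mutants lay above all heterozygotes, by 4.16 ± 0.51 (17.9-fold, adjusted p = 0.00019). Lepr, the leptin receptor, read 11.80, 11.09, 10.83 and 10.53 in mutants against 7.63, 7.38, 7.24 and 6.73 in heterozygotes. The gap between the groups was wider than the spread in either, and the difference was 3.82 ± 0.59 (14.1-fold, adjusted p = 0.001). Cyp2b9 was nearly level across mutants, between 12.96 and 13.05, and scattered in heterozygotes, at 12.59, 10.16, 7.10 and 7.90. Heterozygote 1 came within 0.4 log2 units of the mutants for this gene, and its call (3.56 ± 1.0, adjusted p = 0.029) was lost without any 1 of heterozygotes 3 and 4 and mutants 1, 2 and 4, with an adjusted p up to 0.087. Cyp2a22 rose by 3.11 ± 0.45 (adjusted p = 0.0007), from 7.72 to 9.90 in heterozygotes to 12.17 to 12.49 in mutants. The Cyp2b and Cyp2a genes have close relatives whose transcripts can bind the same probes, so a value may include a relative.

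Aqp7, a channel that lets glycerol cross membranes, read 9.89, 9.02, 9.79 and 9.34 in mutants and 6.77, 6.59, 6.95 and 7.09 in heterozygotes, a rise of 2.66 ± 0.32 (6.32-fold, adjusted p = 0.00015). The serine protease gene Prss8 had a tighter spread, with 9.80 to 10.28 in mutants and 7.14 to 7.89 in heterozygotes (2.40 ± 0.19, adjusted p = 6.0e-06). Abcc4, an efflux pump for organic anions and bile acids, rose by 2.24 ± 0.24 (adjusted p = 6.5e-05). Cd63, a membrane protein of late endosomes and lysosomes, rose by 2.22 ± 0.27, and Serpina7, which encodes thyroxine-binding globulin, by 2.13 ± 0.49. The fatty acid binding protein gene Fabp5 read 8.68 to 9.80 in mutants and 7.22 to 7.40 in heterozygotes (2.08 ± 0.26, adjusted p = 0.00022). Myc, a growth-promoting transcription factor, read 10.59, 9.94, 9.68 and 9.99 against 7.52, 7.62, 8.44 and 8.56, a rise of 2.02 ± 0.40 (adjusted p = 0.0049). Its unfasted difference was 0.46 and not called (adjusted p = 0.57), and the change between the feeding states was not called. Ly6d, a cell surface antigen, closed the 15 largest rises at 2.0 ± 0.36.

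**Figure D1:**
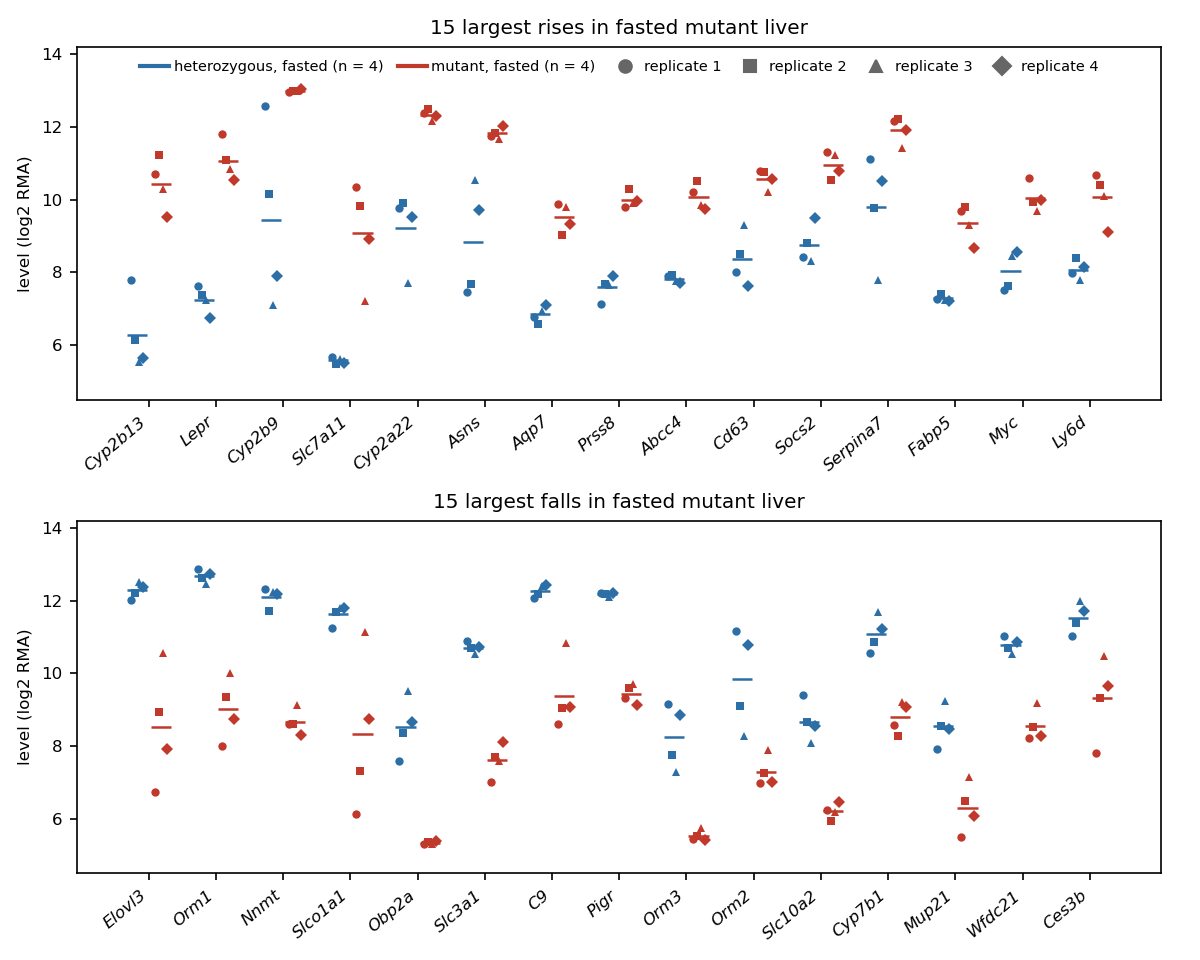
Level (log2 RMA) of the 15 largest rises (top) and the 15 largest falls (bottom) on each fasted array, with heterozygotes in blue, mutants in red, a marker shape per replicate number and a horizontal bar at the group mean. No gene shown has overlapping groups, since the naming rule asked for that, and mutant 3 (triangle) is the mutant nearest the heterozygotes for Elovl3 (10.56) and Slco1a1 (11.13).

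The largest falls were in male-biased genes, orosomucoids, solute carriers and a nicotinamide enzyme. Elovl3, a fatty acid elongase known to be higher in males, read 6.72, 8.92, 10.56 and 7.92 in mutants against 12.02, 12.20, 12.52 and 12.38 in heterozygotes. Mutants scattered over nearly 4 log2 units and all lay below the heterozygotes, with a difference of -3.75 ± 0.70 (13.4-fold lower, adjusted p = 0.0033). Orm1, an orosomucoid (a plasma glycoprotein of the acute phase), read 7.99, 9.35, 10.01 and 8.73 in mutants and 12.45 to 12.88 in heterozygotes (-3.65 ± 0.63, adjusted p = 0.0022). Nnmt, nicotinamide N-methyltransferase, which uses S-adenosylmethionine to methylate nicotinamide, read 8.60, 8.60, 9.13 and 8.31 in mutants and 12.31, 11.71, 12.24 and 12.18 in heterozygotes. Both groups were tight, and the difference was -3.45 ± 0.48 (10.9-fold lower, adjusted p = 0.00052). Slco1a1, an organic anion and bile acid uptake transporter, ranged in mutants from 6.12 to 11.13 and in heterozygotes from 11.24 to 11.80. Mutant 3 reached 11.13, just below the lowest heterozygote, and the call (-3.30 ± 0.87, adjusted p = 0.02) was lost without heterozygote 4, mutant 1 or mutant 2 (adjusted p up to 0.068).

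Slc3a1, the heavy subunit of a cystine and dibasic amino acid carrier, read 7.02, 7.69, 7.58 and 8.11 in mutants and 10.52 to 10.88 in heterozygotes (-3.11 ± 0.29, adjusted p = 2.7e-05). Pigr, the receptor that carries IgA across epithelia and into bile, was at 9.12 to 9.70 in mutants and 12.09 to 12.22 in heterozygotes (-2.74 ± 0.40, adjusted p = 0.00074). Slc10a2, the ileal type of sodium-dependent bile acid transporter, fell by 2.47 ± 0.33, the whey acidic protein domain gene Wfdc21 by 2.23 ± 0.24, and the carboxylesterase gene Ces3b fell by 2.21 ± 0.50. Mup21, a major urinary protein, read 5.50 to 7.14 in mutants and 7.91 to 9.25 in heterozygotes (-2.24 ± 0.39, adjusted p = 0.0022). Orosomucoids and major urinary proteins are families of near-identical genes, so the split of their signal between members is uncertain. A further fall of this size, at a pseudogene, was counted but is not named.

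The genotype differences in the 2 feeding states come from separate arrays and could be set side by side. Of the 2716 genes called after the fast, 2449 had the same sign in the unfasted comparison and 267 the opposite one, and 2328 were larger after the fast, the state in which they had been picked. The share of all genes with the same sign in both states was not counted, so the sign count has no background beside it. The median unfasted difference of the called genes was 0.23 for those called higher and -0.16 for those called lower. A test of the difference between the states called 2 genes (0.01%), with 2189 at an unadjusted p under 0.05. Hsd3b5, a male-biased steroid dehydrogenase gene, differed by -5.29 unfasted and by -1.41 ± 0.35 fasted (adjusted p = 0.014), a change in the difference of 3.87 (adjusted p = 0.015). In fasted mutants it read 5.47 to 5.61, near the bottom of the scale, and in fasted heterozygotes 5.93, 6.86, 7.14 and 7.78, while the change from unfasted to fasted heterozygotes was -3.91. Xkr9, which encodes a relative of phospholipid scramblases, rose by 0.39 ± 0.10 fasted and was 0.56 lower unfasted (change 0.95, adjusted p = 0.05). The call of a changed difference for Hsd3b5 did not survive leaving out 1 of 6 arrays (adjusted p up to 0.057): heterozygote 2, mutant 2, unfasted heterozygote 3 and unfasted mutants 1, 3 and 4. That for Xkr9 held only without mutant 1, mutant 3 or unfasted heterozygote 1, and without any other array its adjusted p was 0.055 to 0.19. The fasted call of Xkr9 was itself lost without heterozygote 3 or mutant 2 (adjusted p up to 0.064).

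**Figure D2:**
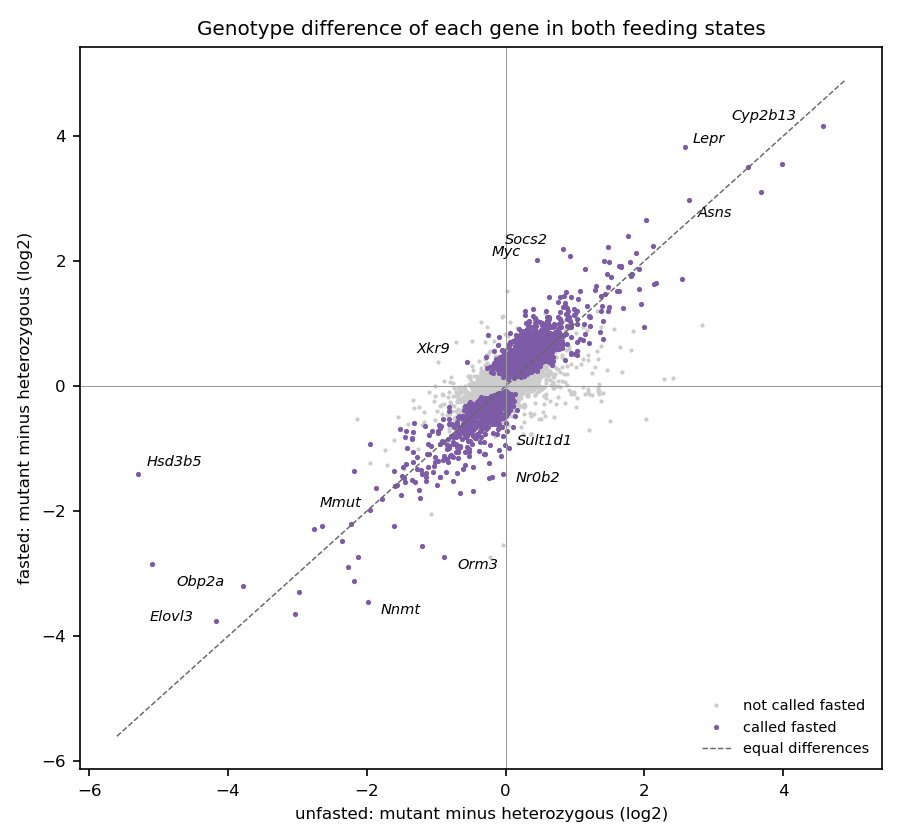
Mutant minus heterozygous difference (log2) of each of the 19938 genes, unfasted on the horizontal and fasted on the vertical axis, with the 2716 genes called after the fast in purple, the others in grey and a dashed line where both differences are equal. Lepr (2.58 unfasted, 3.82 fasted), Myc and Socs2 lie above the line, Hsd3b5 lies far to its left, and most purple points share their sign on both axes.

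Sex-biased liver genes were among the large changes. Of 19 measured genes with a known male bias, 14 fell and none rose (5.01% of all genes fell), with a median of -1.36 against -0.02 over all genes. Beside Elovl3 and Slco1a1 these included Obp2a, an odorant-binding protein, which read 5.30 to 5.38 in mutants and 7.58, 8.35, 9.52 and 8.66 in heterozygotes (-3.19 ± 0.34, adjusted p = 7.0e-05). Mutants were all at a low, level reading, so the size of this fall may be understated. Cyp7b1, an oxysterol 7-alpha-hydroxylase, read 8.58, 8.28, 9.21 and 9.06 in mutants and 10.56, 10.85, 11.68 and 11.21 in heterozygotes (-2.29 ± 0.24, adjusted p = 6.7e-05). Of 14 measured genes known to be higher in females, 6 rose and none fell (8.62% of all genes rose), with a median of 0.88. After the 3 cytochromes above, Slc22a26, an organic anion transporter, rose by 1.72 ± 0.31 (adjusted p = 0.0027), from 6.64 to 7.64 in heterozygotes to 8.11 to 9.57 in mutants. Not all female-biased genes moved: Cyp17a1 was at -0.79 and Cyp2b10 at -0.56, neither called. The mean level of the male-biased list was 8.35 to 9.69 over mutants and 10.19 to 10.78 over heterozygotes, and mutant 3 was the highest mutant.

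Growth hormone signals through STAT5, and several genes of that axis moved. Socs2, a feedback inhibitor of the growth hormone receptor and a known STAT5 target, read 11.31, 10.53, 11.22 and 10.80 in mutants and 8.43, 8.81, 8.30 and 9.50 in heterozygotes (2.20 ± 0.44, 4.61-fold, adjusted p = 0.0051). Its unfasted difference was 0.83 and not called (adjusted p = 0.3), and neither was the change between the feeding states (adjusted p = 0.45). Ghr, the growth hormone receptor, fell by 0.48 ± 0.09 (adjusted p = 0.0029), with mutants at 11.87 to 12.27 and heterozygotes at 12.49 to 12.63. Igfbp3 and Igfbp2, carriers of insulin-like growth factors, rose by 0.83 ± 0.17 and 0.76 ± 0.19, the second not without heterozygote 2 or 4 (adjusted p up to 0.063). Igf1, the growth factor itself, read 12.28 to 12.43 in mutants and 12.24 to 12.42 in heterozygotes, a difference of 0.01 ± 0.06 (adjusted p = 0.94), so the groups overlapped throughout. Of the 11 measured genes of the axis 4 rose and 1 fell, with 2 higher without heterozygote 2 or 4 and 2 lower without heterozygote 3 or mutant 3. The STAT5 site letters TTCNNNGAA, searched on both strands from 250 bases before to 50 after the RefSeq start sites, were present in 8.3% of all such windows. They were found in 1 of 10 male-biased genes that fell and had a window (C8a) and in 1 of 5 female-biased genes that rose (Slc22a26). Among genes not called they were in 0 of 3 male-biased and 2 of 7 female-biased ones (Fmo2 and Sult3a1). A gene counted if any of its windows held the letters, whereas the 8.3% is a share of windows.

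Genes of the integrated stress response, in which the transcription factor ATF4 raises amino acid synthesis and uptake when translation is restrained, were called higher in part. Of 28 measured genes of this response 11 rose and 1 fell, with a median of 0.51. Slc7a11, the cystine-glutamate exchanger, read 10.36, 9.82, 7.21 and 8.91 in mutants and 5.49 to 5.68 in heterozygotes. Heterozygotes were level and mutants scattered, with mutant 3 lowest, and the rise was 3.50 ± 0.82 (11.3-fold, adjusted p = 0.011). Asns, asparagine synthetase, was level in mutants, at 11.67 to 12.04, and scattered in heterozygotes, at 7.46, 7.68, 10.54 and 9.71 (2.98 ± 0.53, 7.87-fold, adjusted p = 0.0027). Psat1, of serine synthesis, read 9.72, 9.76, 8.76 and 9.82 in mutants and 7.43 to 7.58 in heterozygotes (1.98 ± 0.37, adjusted p = 0.0036). Nupr1, a small stress-induced nuclear protein, read 9.16, 11.05, 10.27 and 8.39 against 7.58 to 7.99 (1.87 ± 0.40, adjusted p = 0.0067), so that mutants 2 and 3 were highest for this gene. The exception that fell was Shmt2, mitochondrial serine hydroxymethyltransferase, at -0.24 ± 0.08 (adjusted p = 0.047), which failed to pass on leaving out 1 of 9 arrays (adjusted p up to 0.13): heterozygotes 1, 2 and 4, mutants 1, 2 and 3, unfasted heterozygotes 3 and 4 and unfasted mutant 2. Fgf21, a fasting hormone of the liver, read 8.60, 9.44, 9.10 and 8.72 against 8.12 to 8.48 and did not pass (0.62 ± 0.23, adjusted p = 0.086).

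The amino acid response element, the motif through which ATF4 and its partners raise transcription, was searched for in the same promoter windows, since 11 of these genes were called higher. It was written as TGATGNAA and sought on both strands. It was present in 3.97% of the 32851 RefSeq windows of GRCm38.p6. Of the 11 genes that rose, 9 had a window and 5 held a match, against 3 of 16 that were not called (Atf3, Chac1 and Fgf21) and 0 of 1 that fell. A gene counted if any of its windows held a match, whereas the 3.97% is a share of windows. The list was made of genes known for this response, so matches among them were likely from the outset. Whether ATF4 acted on these genes was not tested. The stretches with a match are shown 5′ to 3′ on the strand of the gene, with each match in capitals.
Slc7a11: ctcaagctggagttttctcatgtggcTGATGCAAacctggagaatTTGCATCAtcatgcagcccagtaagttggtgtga
Asns: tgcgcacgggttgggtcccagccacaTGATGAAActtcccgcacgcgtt
Nupr1: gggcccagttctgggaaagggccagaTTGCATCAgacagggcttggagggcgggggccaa
Vldlr: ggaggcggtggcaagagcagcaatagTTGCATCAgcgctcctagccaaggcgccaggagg
Trib3: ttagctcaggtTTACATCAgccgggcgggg
The Slc7a11 stretch (chr3:50443627-50443705, minus strand) holds 2 matches, at -66 and at -47 from the start site and in opposite orientation. The Asns stretch is at chr6:7693210-7693258 (minus strand, match at -23), that of Nupr1 at chr7:126625547-126625606 (minus strand, -110) and that of Vldlr, from 1 of its 2 promoters, at chr19:27216794-27216853 (plus strand, -200). The Trib3 stretch, at chr2:152344028-152344057 (minus strand), has its match at 15 bases after the start. Vldlr, a lipoprotein receptor, and Trib3, a pseudokinase of the stress response, were named for these matches after their values were seen, with no array left out in turn, and rose by 1.53 ± 0.25 (adjusted p = 0.0017) and 1.10 ± 0.25 (adjusted p = 0.009). A match is a description of the letters and was not tested as a binding site.

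Aminoacyl-tRNA synthetases, which charge tRNAs with amino acids and are also raised by ATF4, were called higher in part. Of 18 measured cytosolic ones 6 rose and none fell, with a median of 0.29, and 16 of 18 differences were above 0. Gars, for glycine, rose by 0.81 ± 0.13 (adjusted p = 0.0011), with 10.32 to 10.80 in mutants and 9.65 to 9.74 in heterozygotes, and Sars, for serine, by 0.64 ± 0.15 (adjusted p = 0.012). The count was 3 without any 1 of heterozygotes 1, 2 and 3 and mutants 2 and 4. Mitochondrial chaperones and proteases rose in 6 of 14 measured genes, with none called lower and 3 rising without mutant 2. Of the 14 differences 2 were below 0, the lowest at -0.72 and not called. Hspa9, the mitochondrial Hsp70, rose by 0.51 ± 0.09 (adjusted p = 0.0025), Hspd1, the Hsp60 chaperonin, by 0.40 ± 0.10 and Afg3l2, an inner membrane protease, by 0.37 ± 0.08. The call of Hspd1 was lost without mutant 2 (adjusted p = 0.052). Chaperones of the endoplasmic reticulum moved the other way, with 4 of 23 measured genes lower and 1 higher and a median of -0.21. Edem1, which directs misfolded glycoproteins to degradation, fell by 0.52 ± 0.11 (adjusted p = 0.0077), and Herpud1, of the same disposal route, by 0.43 ± 0.11 (adjusted p = 0.015), a call lost without heterozygote 1 or mutant 2. The count lower ran from 1 to 8 as single arrays were left out and was 8 in a fit of the fasted arrays alone. It was 1 without heterozygote 1 or mutant 2, 2 without heterozygotes 2 or 4, mutant 1, unfasted heterozygotes 3 or 4 or unfasted mutant 2, and 8 without unfasted heterozygote 1.

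Targets of NRF2, the regulator of defence against oxidants, rose in 8 of 19 measured genes, with none lower and a median of 0.23. Besides Slc7a11 and Abcc4 these were led by Hmox1, heme oxygenase, which read 9.76, 11.15, 10.61 and 9.09 in mutants and 8.91, 8.44, 8.39 and 8.47 in heterozygotes (1.60 ± 0.38, adjusted p = 0.012). Mutants 2 and 3 stood highest, as for Nupr1, while mutant 4 was 0.18 above heterozygote 1. Nqo1, a quinone reductase, read 8.17 to 9.16 against 7.14 to 7.57 (1.25 ± 0.28, adjusted p = 0.0092). The count was 5 without any 1 of heterozygotes 3 and 4 and mutants 1 and 4. Gclm and Txnrd1, further NRF2 targets, were at -0.08 and -0.01 and were not called. None of 10 measured p53 targets was called (limma, adjusted p from 0.055 for Sesn1), and their differences lay between -0.05 and 0.29.

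**Figure D3:**
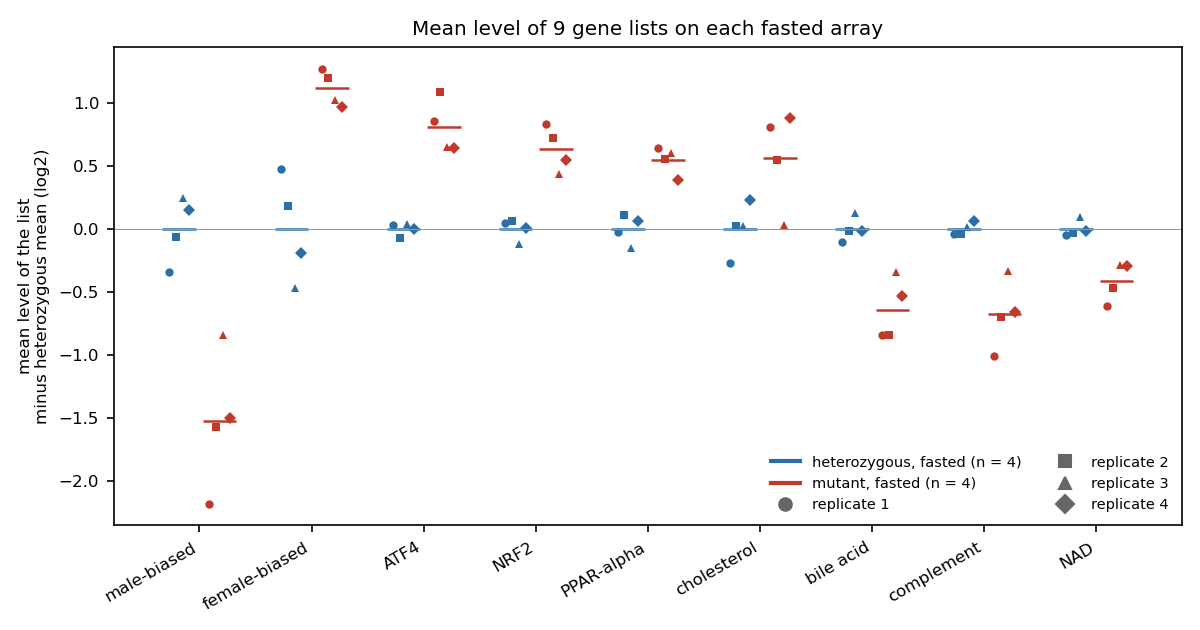
Mean level of 9 gene lists on each fasted array, as the difference (log2) from the mean of the 4 heterozygotes, with heterozygotes in blue, mutants in red, a marker shape per replicate number and a bar at each group mean. For 8 of the lists the groups do not overlap, and for cholesterol genes mutant 3 (9.74 before subtraction) lies within the heterozygotes' range of 9.44 to 9.94.

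Leptin receptor partners were examined because Lepr had the second largest rise. Leprot, which overlaps Lepr at its start, so that the signals may not be fully separate, and which regulates how much receptor reaches the surface, rose by 0.72 ± 0.09 (adjusted p = 0.00025), with 8.66 to 9.05 in mutants and 7.90 to 8.15 in heterozygotes. Grb10, an adaptor that restrains insulin and growth factor receptors, rose by 1.24 ± 0.23 (adjusted p = 0.0032), with 8.77, 8.52, 7.92 and 7.93 in mutants and 6.96 to 7.11 in heterozygotes. The remaining 6 of 9 measured genes, among them the kinase Jak2 (0.20) and the inhibitor Socs3 (-0.24), were not called.

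Genes of fatty acid use were higher in part. Of 24 measured PPAR-alpha targets 5 rose and none fell, with a median of 0.23. Acot2, a mitochondrial thioesterase that frees fatty acids from CoA, read 12.58, 12.58, 12.10 and 11.58 in mutants and 10.07 to 10.68 in heterozygotes (1.87 ± 0.30, adjusted p = 0.0014). Pdk4, the kinase that restrains pyruvate oxidation, read 12.57, 12.35, 11.37 and 11.23 against 10.08 to 10.53 (1.65 ± 0.39, adjusted p = 0.011). For both genes mutants 1 and 2 stood above mutants 3 and 4. Other classical targets were not called, with Cyp4a10 at 0.01, Cyp4a14 at 0.04, Angptl4 at -0.02 and Cpt1a at 0.18. The count was 3 without heterozygote 1 or mutant 1, 8 without unfasted mutant 4 and 10 in a fit of the fasted arrays alone. For mitochondrial beta-oxidation and ketogenesis 5 of 19 measured genes were called, all higher. Hadhb, a subunit of the trifunctional protein, rose by 0.41 ± 0.09 (adjusted p = 0.0072) and Acadl, long-chain acyl-CoA dehydrogenase, by 0.34 ± 0.08 (adjusted p = 0.01). That count was 2 without heterozygote 3 or mutant 4 and 3 without any 1 of the other 6 fasted arrays. In peroxisomes, Abcd2, which imports very long-chain fatty acids, rose by 1.63 ± 0.39 (adjusted p = 0.013), from 8.17 to 10.22 in heterozygotes to 10.84 to 11.14 in mutants. Ehhadh, the bifunctional enzyme of peroxisomal oxidation, rose by 0.57 ± 0.15 (adjusted p = 0.018), but not without heterozygote 1 or mutant 1 (0.054). Of the 22 peroxisomal genes 4 rose and 1 fell, and 1 rose without heterozygote 1 and 2 without mutant 1 or 2. The exception was Phyh, of phytanic acid breakdown, at -0.17 ± 0.05 (adjusted p = 0.045), which failed to pass on leaving out 1 of 10 arrays (adjusted p up to 0.13): all 4 heterozygotes, mutants 1, 2 and 4, unfasted heterozygotes 1 and 3 and unfasted mutant 2.

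In the tricarboxylic acid cycle, which succinyl-CoA enters, 5 of 18 measured genes rose and none fell, and 2 rose without mutant 2. Idh2, mitochondrial isocitrate dehydrogenase, read 11.62 to 11.89 in mutants and 11.08 to 11.31 in heterozygotes (0.51 ± 0.10, adjusted p = 0.0053), and Mdh2, malate dehydrogenase, 11.99 to 12.23 and 11.50 to 11.70 (0.50 ± 0.09, adjusted p = 0.0027). Oxidative phosphorylation subunits stayed near 0, with 2 of 67 higher, none lower and a median of 0.02, against 8.62% of all genes higher. Both calls, Atp5g1 at 0.23 ± 0.07 and Ndufc2 at 0.21 ± 0.06, were lost on centring the arrays and without heterozygote 2 or 4 or mutant 2 or 4, and 1 was lost without heterozygote 1, mutant 3 or unfasted heterozygote 1, 2 or 4.

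Of 20 measured genes of cholesterol synthesis and uptake 11 rose and 1 fell, with a median of 0.53. Lss, lanosterol synthase, read 9.90, 9.67, 8.82 and 9.90 in mutants and 8.20, 8.50, 8.50 and 8.54 in heterozygotes (1.14 ± 0.22, adjusted p = 0.0039). Cyp51, lanosterol demethylase, read 11, 10.44, 9.31 and 10.79 against 8.74, 9.25, 9.0 and 9.44 (1.28 ± 0.29, adjusted p = 0.0092). Sqle, squalene epoxidase, read 10.55, 10.39, 8.62 and 10.69 against 7.69, 8.48, 8.44 and 9.28 (1.59 ± 0.45, adjusted p = 0.029), a call lost without any 1 of heterozygotes 1, 2 and 3 and mutants 1, 2 and 4 (adjusted p up to 0.089). For Cyp51 and Sqle mutant 3 lay within the heterozygotes' range. The groups did not overlap in 3 of the 20 genes, against 23.7% of all genes without overlap. Ebp, the sterol isomerase, fell by 0.49 ± 0.12, but not without mutant 1 or 2 (adjusted p up to 0.059). The count higher was 6 without heterozygote 1 and 7 without heterozygote 3, mutant 1, mutant 2 or mutant 4. Against unfasted heterozygotes the fasted heterozygotes were lower over this list, with a median of -0.76, and that comparison shares the fasted heterozygous arrays with the one here.

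Of 23 genes of fatty acid and triglyceride synthesis 5 rose and 4 fell. Elovl6, which elongates palmitate, rose by 0.63 ± 0.14 (adjusted p = 0.0094), and the desaturases Fads2 and Fads1 by 0.45 ± 0.10 and 0.46 ± 0.11, the latter not without heterozygote 1 (adjusted p = 0.052). Scd1, stearoyl-CoA desaturase, fell by 0.52 ± 0.12 (adjusted p = 0.0092) and Agpat2, an acyltransferase of triglyceride synthesis, by 0.42 ± 0.09 (adjusted p = 0.007). Without heterozygote 1 the count higher was 3. The regulator Srebf1 read -0.10 ± 0.17 (adjusted p = 0.71) and fatty acid synthase (Fasn) -0.27. Among 16 genes of the lipid droplet and lipolysis 2 rose (12.5%, against 8.62% of all genes) and 1 fell (6.25%, against 5.01%). Pnpla2, adipose triglyceride lipase, rose by 0.71 ± 0.16 (adjusted p = 0.01) and Fitm1, a protein that helps form droplets, fell by 1.38 ± 0.32 (adjusted p = 0.0099). Fitm1 read 8.69, 8.96, 10.30 and 9.70 in mutants and 10.34 to 11.31 in heterozygotes. Its relative Fitm2, the other gene of this list that rose (0.42 ± 0.11, adjusted p = 0.024), did not pass without heterozygote 1, heterozygote 3 or mutant 1. The list had 4 genes higher without mutant 4 or unfasted mutant 4.

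Of 20 measured genes of bile acid synthesis and transport 9 fell and none rose, with a median of -0.40. Beside Slco1a1 and Cyp7b1, Nr0b2, the repressor SHP that feeds back on bile acid synthesis, read 9.0, 8.43, 8.12 and 9.15 in mutants and 10.65, 10.27, 9.77 and 9.60 in heterozygotes (-1.40 ± 0.31, adjusted p = 0.0088). Its unfasted difference was -0.03 (adjusted p = 0.97), and the change between the feeding states was not called (adjusted p = 0.37). Akr1d1, the 5-beta-reductase of bile acid synthesis, read 9.60, 9.89, 10.78 and 10.50 against 11.05 to 11.44 (-1.02 ± 0.20, adjusted p = 0.0044), with mutants 1 and 2 lowest. Cyp7a1, the rate-limiting enzyme of the classical pathway, overlapped between the groups, at 10.86, 10.84, 12.45 and 12.13 against 11.19, 11.78, 12.93 and 12.27 (-0.48 ± 0.41, adjusted p = 0.45). The uptake carrier Slc10a1 was at -0.06 ± 0.05 (adjusted p = 0.49).

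Of 18 measured liver-made complement components 14 fell and none rose, with a median of -0.47. C9, of the membrane attack complex, read 8.60, 9.05, 10.84 and 9.06 in mutants and 12.08 to 12.42 in heterozygotes (-2.89 ± 0.46, 7.39-fold lower, adjusted p = 0.0014). C6, of the same complex, fell by 1.63 ± 0.28 (adjusted p = 0.002) and C8a by 1.17 ± 0.28 (adjusted p = 0.012). Mbl2, a mannose-binding lectin, read 8.40 to 9.68 in mutants and 10.18 to 10.65 in heterozygotes (-1.46 ± 0.42, adjusted p = 0.03), a call lost without any 1 of heterozygotes 1, 2 and 4 and mutants 1, 2 and 4 (adjusted p up to 0.083). C6 and C8a also stand on the male-biased list. Coagulation and fibrinolysis genes fell in 8 of 18 (5 without mutant 2), with a median of -0.23, led by F7, coagulation factor VII, at -0.57 ± 0.14 (adjusted p = 0.014).

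Acute phase genes were lower in 6 of 22 and higher in 2. The count lower ran from 4 to 9 as single arrays were left out and was 10 in a fit of the fasted arrays alone. The genes that fell include Orm1, Orm2 and Orm3, whose signals may not be separate. Orm3 read 5.44, 5.51, 5.74 and 5.40 in mutants and 9.14, 7.75, 7.28 and 8.84 in heterozygotes (-2.73 ± 0.34, adjusted p = 0.00022). Orm2 read 6.98 to 7.88 in mutants and 11.17, 9.11, 8.28 and 10.79 in heterozygotes (-2.56 ± 0.56, adjusted p = 0.0083), so heterozygotes 1 and 4 were high for both genes. Saa4, a constitutive serum amyloid A, fell by 1.71 ± 0.25 (adjusted p = 0.00076). Apcs, serum amyloid P component, rose by 1.2 ± 0.28 (adjusted p = 0.012), with 10.42 to 11.48 in mutants and 9.41 to 10.33 in heterozygotes. Il1rn, the interleukin-1 receptor antagonist, rose by 0.54 ± 0.12 (adjusted p = 0.0075). Haptoglobin (Hp), at -0.22, and C-reactive protein (Crp), at -0.17, were not called.

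Genes of nicotinamide, one-carbon and nitrogen metabolism were lower in part. Of 20 measured NAD and nicotinamide genes 7 fell and none rose, and 4 fell without mutant 1 or 2. After Nnmt, Aox3, an aldehyde oxidase that acts on N-methylnicotinamide, read 10.70, 10.74, 11.63 and 11.34 in mutants and 12.10 to 12.46 in heterozygotes (-1.18 ± 0.16, adjusted p = 0.00051). Haao, of the route from tryptophan to NAD, read 10.39, 10.92, 11.45 and 11.15 against 11.97 to 12.09 (-1.06 ± 0.16, adjusted p = 0.00097). The salvage enzyme Nampt, at 0.30, was not called. In methionine and one-carbon metabolism 5 of 21 fell and 3 rose. Gldc, of the glycine cleavage system, fell by 1.13 ± 0.25 (adjusted p = 0.0078) and Dmgdh, dimethylglycine dehydrogenase, by 0.57 ± 0.12 (adjusted p = 0.0055). The mitochondrial folate enzymes Aldh1l2 and Mthfd1l rose by 0.85 ± 0.21 (adjusted p = 0.016) and 0.77 ± 0.14 (adjusted p = 0.0029). The count lower was 2 without heterozygote 1, mutant 1 or mutant 2, 3 without heterozygote 2, 3 or 4 and 8 without mutant 4. Otc, ornithine transcarbamylase of the urea cycle, read 9.64, 10.57, 11.31 and 10.24 against 11.48 to 11.87 (-1.21 ± 0.25, adjusted p = 0.0063), 1 of 3 genes that fell among 10.

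Of 18 measured genes of the propionate and cobalamin pathway, to which the targeted step belongs, 2 rose and 2 fell, Mmut included (11.1% in each direction, against 8.62% of all genes higher and 5.01% lower). Abcd4, which helps move cobalamin out of lysosomes, fell by 0.37 ± 0.06 (adjusted p = 0.0014), with 7.87 to 8.15 in mutants and 8.37 to 8.45 in heterozygotes. Mmadhc and Lmbrd1, of cobalamin trafficking, rose by 0.48 ± 0.13 and 0.28 ± 0.08. Both calls were lost without heterozygote 3 or mutant 2, and that of Lmbrd1 also without heterozygote 1, 2 or 4 or mutant 4 (adjusted p up to 0.11). The propionyl-CoA carboxylase subunits Pcca and Pccb read -0.31 and -0.22 and were not called. Of 20 measured genes of branched-chain amino acid breakdown 3 fell, with Acadsb, a short branched-chain acyl-CoA dehydrogenase, at -0.62 ± 0.15 (adjusted p = 0.013) and Hsd17b10 at -0.51 ± 0.11 (adjusted p = 0.0078). That count was 6 without mutant 3 or unfasted mutant 3.

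Genes of glucose and glycogen handling changed singly. Ppp1r3b and Ppp1r3c, which target a phosphatase to glycogen, fell by 1.23 ± 0.15 (adjusted p = 0.00022) and 1.54 ± 0.40 (adjusted p = 0.019). Ppp1r3b read 8.74, 9.11, 8.92 and 9.45 in mutants and 10.24 to 10.39 in heterozygotes, and Ppp1r3c 7.20, 8.75, 9.30 and 8.83 against 9.84 to 10.19, so that mutant 1 was by far the lowest for the second. Gckr, the regulator of glucokinase, fell by 0.57 ± 0.12 and Pygl, liver glycogen phosphorylase, by 0.46 ± 0.10. Of 14 genes of glycolysis and glycogen these 4 fell and 1 rose, Ugp2, which makes UDP-glucose, at 0.36 ± 0.10 (adjusted p = 0.032), though not without heterozygote 1, 3 or 4 or mutant 1 or 2 (adjusted p up to 0.11). Its count higher was 2 without unfasted heterozygote 1 or unfasted mutant 4. Of 17 genes of gluconeogenesis and glycerol use 3 rose and 1 fell. Slc37a4, the glucose-6-phosphate carrier, fell by 0.56 ± 0.13 (adjusted p = 0.012). Ppargc1a, which coactivates transcription of genes for mitochondria and glucose output, read 10.99, 10.24, 10.14 and 9.58 against 9.02, 9.40, 9.70 and 8.89 (0.98 ± 0.26, adjusted p = 0.023), with mutant 4 inside the heterozygotes' range and the call lost without heterozygote 1 or 4 or mutant 1 or 2. It was also the only gene called among 13 targets that insulin represses through FOXO factors (7.69% higher, against 8.62% of all genes). The enzymes Pck1 (0.04 ± 0.10, adjusted p = 0.8) and G6pc (-0.03 ± 0.17, adjusted p = 0.91) overlapped between the groups.

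Of 27 measured glutathione S-, glucuronosyl- and sulfotransferases 10 fell and 3 rose. Sult1d1, a sulfotransferase, read 10.53 to 10.96 in mutants and 11.56, 11.57, 11.88 and 11.57 in heterozygotes (-0.94 ± 0.11, adjusted p = 0.00012). Its unfasted difference was -0.01, and the change between the feeding states was not called (adjusted p = 0.11). Gstt3, a glutathione S-transferase, fell by 1.04 ± 0.22 (adjusted p = 0.0073), whereas Mgst3, a microsomal one, rose by 1.04 ± 0.21 (adjusted p = 0.0046). The count lower was 6 without heterozygote 3 or 4 or mutant 1 or 2, and the count higher was 1 without heterozygote 1. Of 13 measured Cyp2c cytochromes 4 fell and none rose. Cyp2c54 read 9.93, 9.96, 11.66 and 11.12 in mutants and 11.89 to 12.23 in heterozygotes (-1.39 ± 0.32, adjusted p = 0.011), and Cyp2c29 fell by 0.72 ± 0.14 (adjusted p = 0.004). Of 21 heme and iron genes 4 rose and 2 fell, and 2 rose without heterozygote 3 or mutant 2. Besides Hmox1, Alas1, the first enzyme of heme synthesis, rose by 0.70 ± 0.18 (adjusted p = 0.017), a call lost without heterozygote 3 (0.054), while Tfr2, an iron-sensing transferrin receptor, fell by 0.38 ± 0.07 (adjusted p = 0.0032) and hepcidin (Hamp) was at -0.01 ± 0.15 (adjusted p = 0.96). Of the zonation genes, 3 of 10 periportal ones fell and none rose (median -0.17), led by Cyp2f2 at -0.90 ± 0.16 (adjusted p = 0.0031), with 1 lower without heterozygote 3 or mutant 1 or 2. Of 13 pericentral genes 2 fell and none rose, led by Rgn at -0.76 ± 0.17 (adjusted p = 0.0077), with a median of -0.45 and 12 differences below 0. The pericentral count was 5 in a fit of the fasted arrays alone.

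Of 24 measured genes of the cell cycle and DNA replication 7 rose and none fell (4 rose without mutant 1), with a median of 0.26. Ccnd1, cyclin D1, read 12.02, 11.46, 10.80 and 11.01 in mutants and 10.14, 9.46, 9.27 and 9.24 in heterozygotes (1.79 ± 0.28, 3.47-fold, adjusted p = 0.0012). Rrm1, a ribonucleotide reductase subunit, rose by 0.74 ± 0.13 (adjusted p = 0.0026), while Mki67 (0.46), Top2a (0.37) and Cdk1 (0.36), of dividing cells, were not called. Of 17 glucocorticoid-responsive genes 2 fell (11.8%, against 5.01% of all genes) and 1 rose (5.88%, against 8.62%). Sgk1, a kinase of sodium and stress signalling, rose by 1.42 ± 0.24 (adjusted p = 0.002), with mutant 1 highest at 10.74. Dusp1, a phosphatase of MAP kinases, fell by 1.12 ± 0.23 (adjusted p = 0.0058) and Tsc22d3 by 0.72 ± 0.14 (adjusted p = 0.0039). For Dusp1 mutant 1, at 11.07, lay within the heterozygotes' range of 10.95 to 11.5. Of 16 circadian clock genes Dbp alone was called (6.25% higher, against 8.62% of all genes). Dbp rose by 1.14 ± 0.30 (adjusted p = 0.021), with 9.33 to 9.49 in mutants and 7.88 to 8.76 in heterozygotes. It lost its call without heterozygote 1, heterozygote 3 or mutant 2 (adjusted p up to 0.064), the list had 3 calls without unfasted heterozygote 1 and 2 without unfasted mutant 3 or 4, and the labels give no time of day for the samples.

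**Figure D4:**
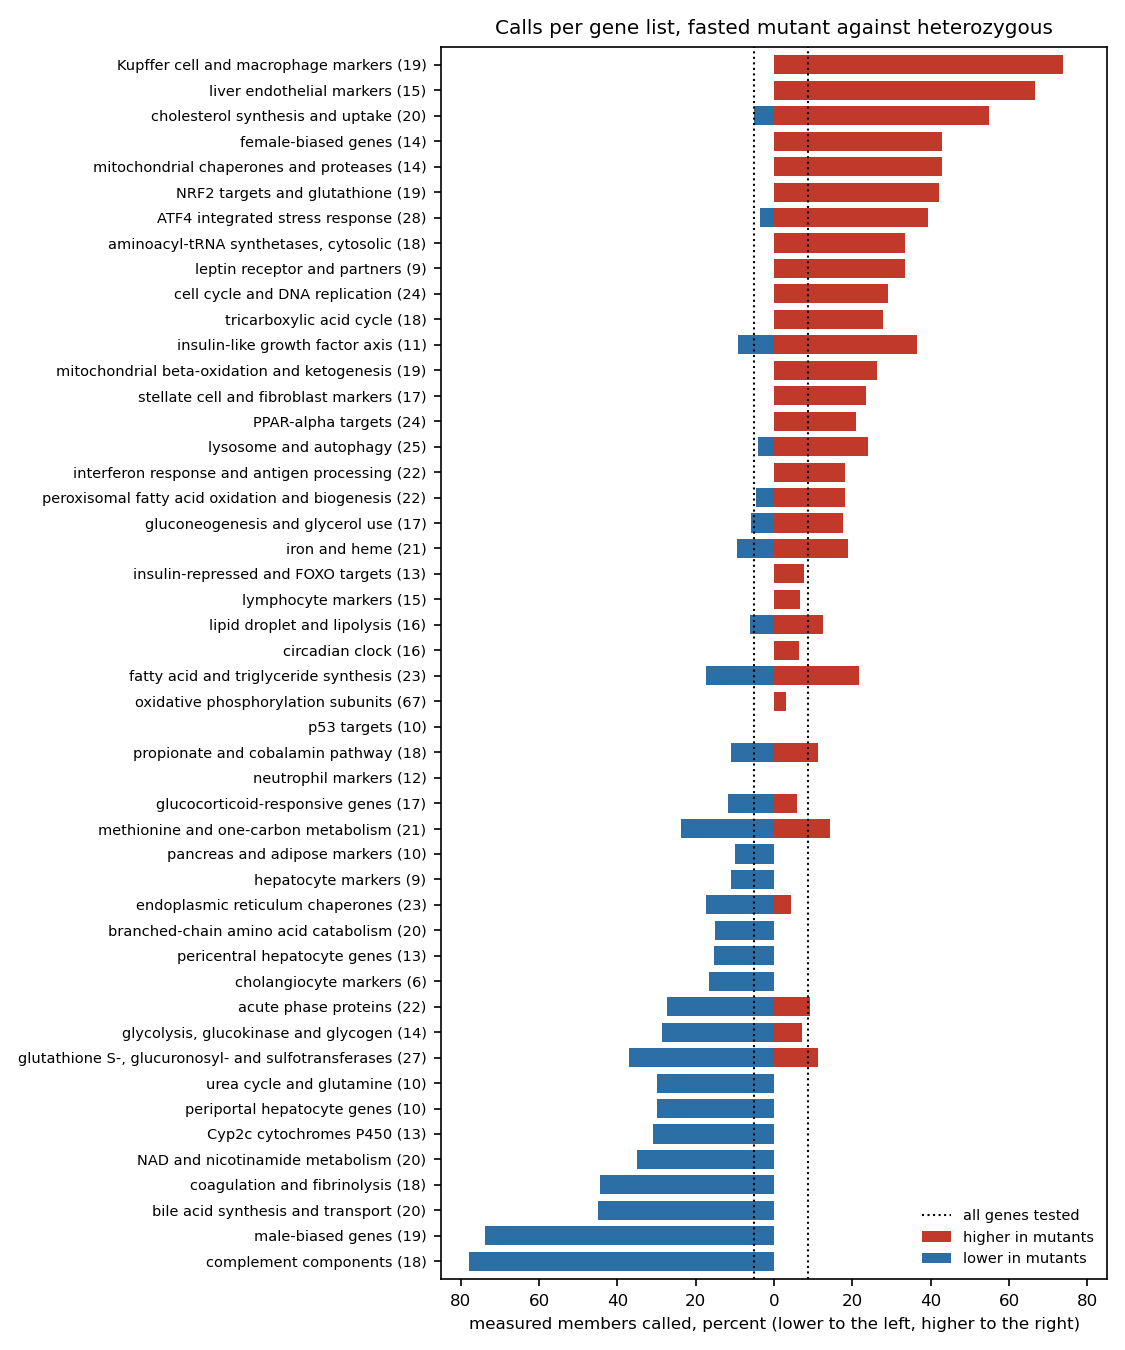
Percent of the measured members of each of 48 gene lists (number measured in parentheses) called higher (red, right) or lower (blue, left) in fasted mutants, with dotted lines at the shares of all 19938 genes, 8.62% higher and 5.01% lower. Complement components (14 of 18) and male-biased genes (14 of 19) reach farthest to the left, and macrophage (14 of 19) and endothelial markers (10 of 15) farthest to the right.

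Markers of other liver cells differed as well. Of 19 measured markers of Kupffer cells and macrophages 14 rose and none fell, with a median of 0.64. Clec4f, a Kupffer cell lectin, read 10.64, 10.47, 10.50 and 10.28 in mutants and 9.87, 9.69, 9.73 and 9.34 in heterozygotes (0.82 ± 0.16, adjusted p = 0.0043). Vsig4, a complement receptor of Kupffer cells, rose by 0.91 ± 0.20 (adjusted p = 0.009), and C1qc, of complement C1q, by 0.84 ± 0.19 (adjusted p = 0.009). Gpnmb, a glycoprotein of lipid-laden macrophages, read 8.24, 7.96, 7.37 and 7.42 against 6.43 to 6.80 (1.11 ± 0.20, adjusted p = 0.0025). The mean level of the list was 8.93 to 9.31 in mutants and 8.36 to 8.74 in heterozygotes, without overlap. The count was 9 without any 1 of heterozygotes 3 and 4 and mutants 1 and 2. In bulk liver more cells of a type and more RNA per cell cannot be told apart.

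Of 15 measured liver endothelial markers 10 rose and none fell, with a median of 0.39. The groups did not overlap in any of the 15, against 23.7% of all genes without overlap. Kdr, a receptor of vascular endothelial growth factor, read 9.99 to 10.08 in mutants and 9.31 to 9.54 in heterozygotes (0.58 ± 0.09, adjusted p = 0.001). Aqp1, a water channel, rose by 0.62 ± 0.11 and Emcn, endomucin, by 0.58 ± 0.11. The list's mean level was 9.92 to 10.11 against 9.44 to 9.65, and 6 of its genes were called after a second quantile normalization. Stellate cell and fibroblast markers rose in 4 of 17, with mean levels of 8.64 to 8.89 against 8.47 to 8.61. Colec11, a collectin, rose by 0.31 ± 0.07 (adjusted p = 0.012), while the collagen genes Col1a1 and Col3a1 were both at 0.01. That count was 1 without mutant 1 and 2 without heterozygote 1, heterozygote 4 or mutant 2. None of 12 neutrophil markers was called (limma, adjusted p from 0.097 for Retnlg), and their mean levels overlapped, at 6.16 to 6.26 and 6.15 to 6.27. Of 15 lymphocyte markers 1 rose (6.67%, against 8.62% of all genes), the B cell gene Ms4a1 by 0.41 ± 0.10 (adjusted p = 0.018). It was joined by others without heterozygote 1 (2 in all) or unfasted mutant 3 (4 in all). Of 6 cholangiocyte markers 1 fell, Sox9 by 0.62 ± 0.12 (adjusted p = 0.005), and the duct keratin Krt19 was at -0.08. Of 10 pancreas and adipose markers only Car3, which hepatocytes also make, was called (-1.09 ± 0.31, lost without heterozygote 1, 2 or 4 or mutant 2), and Cpa1 and Ctrb1 were at -0.11 and -0.03.

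**Figure D5:**
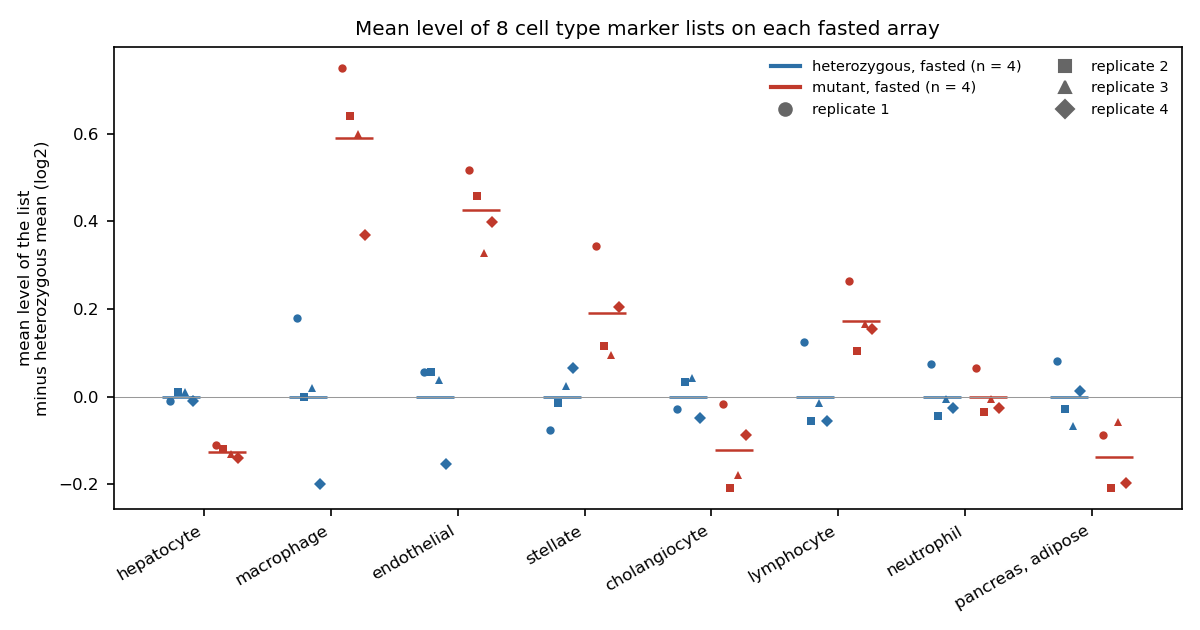
Mean level of 8 cell type marker lists on each fasted array, as the difference (log2) from the mean of the 4 heterozygotes, with heterozygotes in blue, mutants in red, a marker shape per replicate number and a bar at each group mean. Macrophage (8.93 to 9.31 against 8.36 to 8.74 before subtraction) and endothelial markers are higher on every mutant array, hepatocyte markers are lower (12.97 to 13 against 13.10 to 13.12), and neutrophil markers overlap.

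Lysosomal and antigen-presentation genes moved beside the macrophage markers, whose part in these results was not tested. Of 25 measured lysosome and autophagy genes 6 rose and 1 fell, the membrane protein gene Lamp2 by 0.17 ± 0.04 and not without heterozygote 3. Cd63 was first among these, followed by Gpnmb, then by Ctss, a cathepsin of antigen-presenting cells, at 0.76 ± 0.16 (adjusted p = 0.0067) and Hexa, a hexosaminidase subunit, at 0.61 ± 0.12 (adjusted p = 0.0037). Of 22 interferon and antigen-processing genes 4 rose and none fell. The class II genes H2-Aa, Cd74 and H2-Ab1 read 1.04 ± 0.27 (adjusted p = 0.018), 0.87 ± 0.25 (adjusted p = 0.032) and 0.79 ± 0.21 (adjusted p = 0.02). The call of Cd74 was lost without any 1 of heterozygotes 2, 3 and 4 and mutants 1, 2 and 3 (adjusted p up to 0.093), and the list kept 1 call without heterozygote 4 or mutant 1 and 2 without heterozygote 3. Usp18, an interferon-induced protease, read 10.13, 10.33, 9.87 and 9.65 in mutants and 8.51, 8.27, 8.09 and 7.89 in heterozygotes (1.80 ± 0.22, adjusted p = 0.00019). Interferon-induced genes besides it, such as Ifit1 (-0.39), Irf7 (0.05) and Mx1 (0.02), were not called.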

How the data were processed

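RNA of 16 livers was measured on Affymetrix Mouse Gene 1.0 ST arrays, from 300 ng of total RNA per the labels' protocols. The authors deposited log2 values for 35556 probe sets, made with Affymetrix Expression Console and RMA (background correction, quantile normalization and probe summary), per the submitters' processing notes. The sources used here do not give versions, filters or the genome build, and the log2 scale was taken from the range of 3.80 to 14.33. There are no detection calls, so changes of dim genes can be understated, and the number of arrays limits the precision.

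Probe sets with 1 symbol in the platform annotation (21789) were kept and given current symbols, matched on gene number, from RefSeq's table for GRCm38.p6 (21698 matched, 91 kept the old symbol). Those with several symbols (1621) or none listed (12146) were not used here. The brightest probe set stood for a gene, which left 19938 genes, with no filter on dim ones.

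All 16 arrays entered a limma 3.58.1 fit in R 4.3.3 with a mean for each group (eBayes with an intensity trend, two-sided). Adjusted p-values are Benjamini-Hochberg values over all 19938 genes. The test was checked on simulated data. Replicates are separate mice, and the labels do not say that same-numbered arrays are paired, so the fit did not pair them. Deviations of same-numbered mutant and heterozygous arrays correlated at 0.076, 0.078, -0.013 and 0.166. The best-correlated heterozygote was the same-numbered one for mutants 1, 2 and 4, and heterozygote 4 for mutant 3. Whether same-numbered arrays share a batch was not tested. The labels give no batch or scan date. The alternatives were another normalization, other moderation, array weights, other probe rules, stricter thresholds, a fit of the 8 fasted arrays, a replicate block and leaving out each array.

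Genes were named by a rule: Mmut, the 15 largest rises and 15 largest falls among called genes whose fasted groups do not overlap, the genes called for a change of the difference between feeding states, and up to 4 called members in each direction of a list (or the 2 largest where none was called). Predicted genes and pseudogenes were counted, not named. Members quoted beside the rule's, with values and no call or a stated reason, were chosen after their values were seen. The groups and the 48 gene lists (821 distinct measured genes) were chosen with earlier results of these data known, so counts over lists are descriptions and no list was tested. Promoter windows come from a RefSeq table of GRCm38.p6.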

Additional observations from a re-analysis of the deposited data

Results flagged for a closer look

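Of 370 groups of 4 arrays examined, the 2 fasted groups of 185 named genes, 16 held an array whose gap to the others exceeded Dixon's 95% critical value for 4 values. Chance alone flags about 1 in 20 such groups.

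Among fasted mutants, mutant 3 was far below the others for the serine synthesis gene Psat1 (8.76, the others 9.72 to 9.82) and for squalene epoxidase, Sqle (8.62, the others 10.39 to 10.69). Mutant 1 was far above the others for the MAP kinase phosphatase gene Dusp1 (11.07, the others 9.84 to 9.94) and for the p53 target Sesn1 (9.05, the others 8.85 to 8.86).

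Among fasted heterozygotes, replicate 3 accounted for 6 values. It was lowest for Cyp2a22 (7.72, the others 9.53 to 9.90), Mlxipl (10.56) and Gstk1 (12.46), and highest for Idh3a (10.48), Sult1d1 (11.88) and Acmsd, an enzyme that diverts tryptophan breakdown away from NAD (9.13, the others 7.90 to 8.04). Heterozygote 1 was highest for Retnlg (6.52) and Hmox1 (8.91, the others 8.39 to 8.47) and lowest for Lss (8.20). Heterozygote 4 was lowest for Atp5g1 (11.71), Sardh (11.92) and Leprot (7.90).

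The genotype difference itself differed between the fasted and the unfasted state by the fitted test for Hsd3b5 (3.87, adjusted p = 0.015) and Xkr9 (0.95, adjusted p = 0.05), in 4 arrays per group.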

How the results depend on the processing

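No named gene's difference changed sign under any alternative run, but the balance of calls did: median centring gave 1510 higher and 1973 lower, where 1718 were higher and 998 lower as deposited. Of the 2716 genes called, 993 passed an adjusted p under 0.01 (688 higher, 305 lower) and 184 a 2-fold minimum (97 higher, 87 lower). The count lower was 1513 with array weights. Leaving out single arrays gave 1575 to 3180 calls, 1090 to 1944 higher and 485 to 1236 lower. The counts were lowest without mutant 2 (1575) and heterozygote 4 (1713), and lower genes also fell below 998 by over 1.5 times without heterozygote 1 (649), heterozygote 2 (655) or mutant 1 (621). The count of changed differences between feeding states, 2 as fitted, was 1 with array weights, median centring or a 2-fold minimum, 0 among bright genes, with robust moderation or at an adjusted p under 0.01, and 0 to 6 without single arrays. Of 185 named genes, 83 no longer passed at 0.01, 109 lacked a 2-fold difference, and 46 at most lost their call without 1 array (mutant 2). The replicate block gave 2739 calls, 2464 of them shared with the 2716. It moved 10 list counts by over 1.5 times or to or from 0 and left 86 within that bound. Among those moved were pericentral genes called lower, from 2 to 5, and methionine and one-carbon genes called lower, from 5 to 8. Array weights and the fit of the 8 fasted arrays each moved 20 list counts and left 76. The labels give same-numbered arrays no link beyond the number. With the block Retnlg passed, Lmbrd1, Creld2 and Sdf2l1 did not, and no other named gene changed its call. The causes were not tested. There are no detection calls, so changes at dim probe sets such as Obp2a, Orm3 and Hsd3b5 may be understated.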

Other observations

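Genes outside the lists, chosen after their values were seen and not refitted with arrays left out, added further groups. Nipal1, which encodes a magnesium transporter, read 9.88 to 10.27 in mutants and 7.98 to 8.34 in heterozygotes (1.92 ± 0.12, limma adjusted p = 3.6e-07, unfasted 1.66). The solute carrier gene Slc35f2 rose by 1.93 ± 0.16 (adjusted p = 6.1e-06) and the laminin receptor subunit Itga6 by 1.98 ± 0.27 (adjusted p = 0.00047). Car2, a carbonic anhydrase, rose by 1.74 ± 0.26, S100a11, a calcium-binding protein, by 1.54 ± 0.26 and its relative in calcium binding, annexin A2 (Anxa2), by 1.07 ± 0.17. Pparg, the nuclear receptor of fat storage, was level in mutants at 10.50 to 10.61 and read 9.43 to 9.85 in heterozygotes (0.95 ± 0.15, adjusted p = 0.0012). Fabp3 and Fabp4, fatty acid binding proteins that are known from muscle and from fat and macrophages, rose by 1.02 ± 0.18 and 1.09 ± 0.30, with mutant 1 far the highest for Fabp4 at 10.28 against 8.12 to 8.75 in the other mutants. Acsl4, which activates arachidonic acid, rose by 1.43 ± 0.21 (adjusted p = 0.00084).

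Among falls outside the lists, Ido2, an enzyme of tryptophan breakdown, read 8.13, 8.76, 9.75 and 8.99 in mutants and 10.45 to 10.94 in heterozygotes (-1.79 ± 0.24, adjusted p = 0.00043). Sucnr1, the receptor for succinate, fell by 1.60 ± 0.30 and Fgfr4, the liver receptor for the bile acid hormone FGF15, by 0.85 ± 0.18. Arrdc3, an arrestin-related adaptor, read 9.33 to 10.23 against 10.62 to 11.82 (-1.46 ± 0.29, adjusted p = 0.0047). Its unfasted difference was -0.20, and the change between the feeding states was not called. Alas2 and Car1, genes of red cell precursors, differed by -1.53 ± 0.33 (adjusted p = 0.0075) and -1.51 ± 0.30 (adjusted p = 0.0043). Alas2 read 8.03, 8.36, 9.98 and 8.95 in mutants and 10.17 to 10.71 in heterozygotes, so that mutant 3 was again the nearest to the heterozygotes. Serum amyloid genes Saa1 and Saa2 scattered too widely for a call (adjusted p = 0.1 and 0.057), and Saa2 was high in heterozygotes 1 and 4, at 12.30 and 11.12, the arrays that were high for Orm2 and Orm3.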
